A study of Mus musculus with 6 samples.

Results

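The metallothioneins and a group of zinc transporters were followed in cultured mouse chondrocytes, the only cells of healthy cartilage. The members are 10 genes of 55487 in the files, taken by name as the genes of the zinc, ZIP8, MTF1 axis: the metallothioneins Mt1 and Mt2, the zinc-sensing transcription factor Mtf1, the importers Slc39a8, Slc39a14, Slc39a10 and Slc39a6, and the exporters Slc30a1, Slc30a5 and Slc30a7. All 10 were found and all 10 had enough counts for the test. The chondrocytes came from knee cartilage of the strain labelled C57B/6 and were kept in medium with 10% fetal bovine serum. All of them received extracellular vesicles, membrane particles shed by cells, dosed at 10 µg/ml of protein and left for 24 h. The vesicles of the reference group (M-EV, 3 libraries) were shed by macrophages with no stimulus named, and those of the other group (M-LPS-EV, 3 libraries) by macrophages exposed to the bacterial endotoxin LPS. The sources used here do not give the age of the mice, the kind of macrophage or any pooling of animals, and chondrocytes without vesicles were not analysed here, so every difference is between the vesicle types.

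Zinc is held at a very low free level inside cells. ZIP proteins, encoded by the Slc39a genes, move zinc into the cytosol from outside or from organelles, ZnT proteins, encoded by the Slc30a genes, move it out of the cytosol, and metallothioneins are small cysteine-rich proteins that bind it. MTF1 binds free zinc and then activates genes that carry metal response elements, among them Mt1, Mt2 and Slc30a1. In cartilage, import of zinc by ZIP8 (Slc39a8) with activation of MTF1 is known from work on osteoarthritis as a route to the expression of matrix-degrading proteases.

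Metal response elements share a short core, and the promoters are shown because the windows searched split into some with and some without that core. Promoter windows of 300 bases, from 250 before to 50 after each annotated start, came from RefSeq (GRCm38.p6, the mm10 build) and were matched for 8 of the 10 genes, in 10 windows; Slc39a14 and Slc39a6 had no entry. The core was searched as TGCACNC or TGCGCNC on both strands. In the stretches below, written 5′ to 3′ along the gene's strand, capitals mark the core, which reads as its reverse complement where it lies on the other strand. Positions count from the annotated start, which is +1.
Mt1, -60 to -1, chr8:94179029-94179088, + strand: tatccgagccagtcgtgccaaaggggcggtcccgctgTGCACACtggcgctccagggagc
Mt1, +1 to +30, chr8:94179089-94179118, + strand: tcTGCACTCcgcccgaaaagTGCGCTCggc
Mt2, -230 to -120, chr8:94172388-94172498, + strand: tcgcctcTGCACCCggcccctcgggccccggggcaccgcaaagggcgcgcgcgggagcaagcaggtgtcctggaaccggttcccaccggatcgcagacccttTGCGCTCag
Mt2, -70 to -1, chr8:94172548-94172617, + strand: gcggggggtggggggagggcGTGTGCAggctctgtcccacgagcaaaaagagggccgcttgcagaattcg
Mt2, +1 to +30, chr8:94172618-94172647, + strand: ggtcGTGCGCAggcccaggggcgtgtgctg
Slc30a1, -60 to -1, chr1:191906721-191906780, + strand: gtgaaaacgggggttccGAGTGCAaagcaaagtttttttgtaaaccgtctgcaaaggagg
Slc30a1, +16 to +45, chr1:191906796-191906825, + strand: ggacgcctccgggccGAGCGCAgtcgccgc
Slc39a8, window 2, -60 to -1, chr3:135825597-135825656, + strand: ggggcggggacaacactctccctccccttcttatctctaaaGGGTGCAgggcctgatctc

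The core occurred 4 times in the Mt2 window, 3 times in that of Mt1 and 2 times in that of Slc30a1. Of all 32851 windows in the RefSeq table, 25.7% held it at least 1 time, 7.11% at least 2 times, 1.97% at least 3 times and 0.517% at least 4 times. It occurred 1 time in the Slc30a5 window and 1 time in the second of 2 Slc39a8 windows, and the windows of Mtf1, Slc39a10 and Slc30a7 held none of these letters. Other motifs were searched in the same way on both strands. The antioxidant response element core TGACNNNGC (12.4% of all windows) lay 1 time each in the windows of Mt2, Slc30a1 and Slc30a5 and in the first window of Slc39a8. The NF-kB motif, GGGA and CC with any 4 bases between them (20.7% of all windows) lay 1 time in the Mt1 window and 3 times in that of Slc30a5. The STAT motif TTCNNNGAA (8.3% of all windows) lay in the second Slc39a10 window. That window is set on a RefSeq start at 46925776, outside the span given for the gene below (46807544 to 46892852). No match overlapped another. A match is a sequence description and not a measured binding site. The counts also depend on the annotated start on which a window is set. That of Mt1 was set on 94179089, while its minor forms Mt1-203 and Mt1-202 begin at 94179211 and 94179241, beyond the window's end. Sequence around those starts was not searched.

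**Figure D1:**
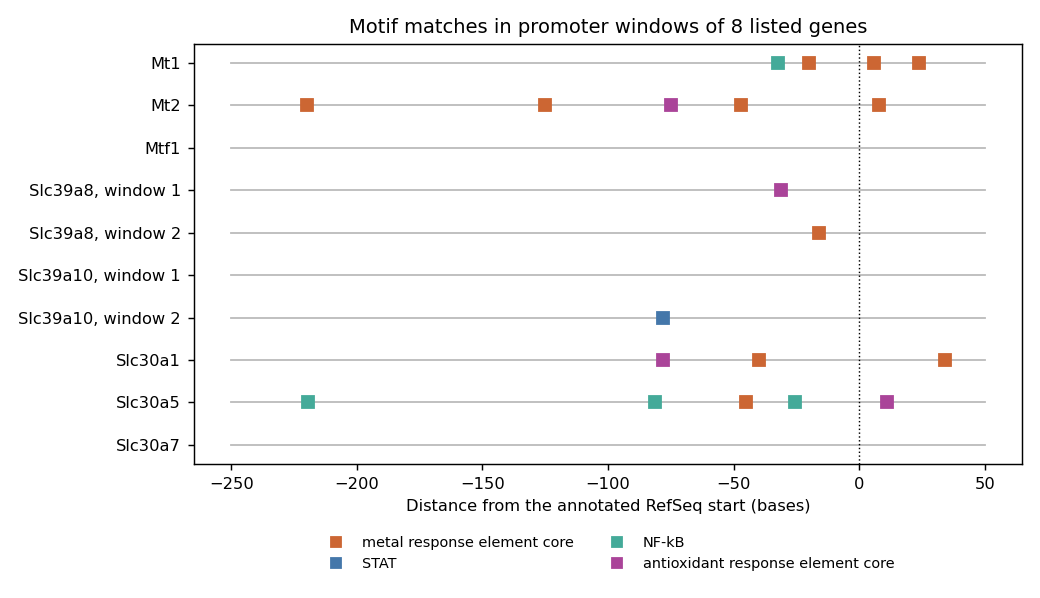
Motif matches along the 10 promoter windows of 8 listed genes, each window a grey line with distance from the annotated RefSeq start in bases on the x axis. Squares are matches coloured by motif; metal response element cores are most frequent in the Mt2 and Mt1 windows, with 4 and 3.

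The libraries held 20239626 to 25712667 expected counts, and replicates of either group varied beyond what sampling of reads alone gives (chi-square per degree of freedom 1.69 to 2.78). The chondrocyte markers Col2a1, Acan, Matn1, Col9a1, Comp, Sox9 and Hapln1 were all present and summed to between 111819 and 112966 CPM (a count relative to the library total, adjusted by TMM) with M-EV and between 95361 and 97371 CPM with M-LPS-EV. Most of that sum was Col2a1, at a mean of 86151 and 76338 CPM. Of the 7 markers 6 were called lower, beside 15.2% of all tested genes. Their log2 fold changes ran from -0.17 (Col2a1 and Comp) to -0.90 (Matn1), and Sox9 was not called (0.06). Of 10 macrophage markers all had counts in both groups. Their sum lay between 23.0 and 25.7 CPM with M-EV and between 30.4 and 35.2 CPM with M-LPS-EV. Most of that sum was Lyz2, at a mean of 15.5 and 22.2 CPM. The pan-leukocyte gene Ptprc had 23 and 20 counts per group. Of the 6 macrophage markers tested 3 were called higher (Adgre1, Lyz2 and Itgam), while C1qa (37 and 2 counts per group) and C1qb (34 and 5) stayed below the test's count filter. Of 6 fibroblast markers Dcn (log2 fold change 0.46) and Lum (0.33) were called higher and Col1a2 (-0.35) and Col1a1 (-0.15) lower. Col3a1 and Pdgfra were not called, and the shares among all tested genes were 16.4% higher and 15.2% lower. The fibroblast sum lay between 2033 and 2052 CPM with M-EV and between 2097 and 2142 CPM with M-LPS-EV. The part of RNA from such cells in the changes below was not tested. In bulk samples, fewer cells of a type and less RNA per cell cannot be told apart. Since no label states that replicates were separate cultures or animals, the spread behind each p-value may be technical: p-values measure only the variation between these samples.

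With M-LPS-EV both metallothioneins and the importers Slc39a8 and Slc39a14 rose, between 1.64-fold and 8.12-fold. The zinc sensor Mtf1, the importer Slc39a10 and the plasma membrane exporter Slc30a1 were not called. The importer Slc39a6 and the organelle transporters Slc30a5 and Slc30a7 fell by 6.54% to 10.9%. Calls rest on edgeR's two-sided quasi-likelihood test with Benjamini-Hochberg adjusted p-values (threshold 0.05, over all 14604 tested genes). By that rule 4 of the 10 rose and 3 fell. Among all tested genes 31.6% were called, 16.4% higher and 15.2% lower. In CPM, all M-LPS-EV libraries lay on the same side of all M-EV libraries for 8 of the 10 genes, against 42.2% of all tested genes. In TPM this held for Mt1, Mt2, Slc39a8, Slc39a14 and Slc30a1, while Slc39a6, Slc30a5 and Slc30a7 overlapped. The share of all tested genes without overlap was not taken in TPM, so the members cannot be set against it on that scale. The median log2 fold change (M-LPS-EV over M-EV throughout) was 0.098 over the 10 genes and 0.003 over all tested genes.

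**Figure D2:**
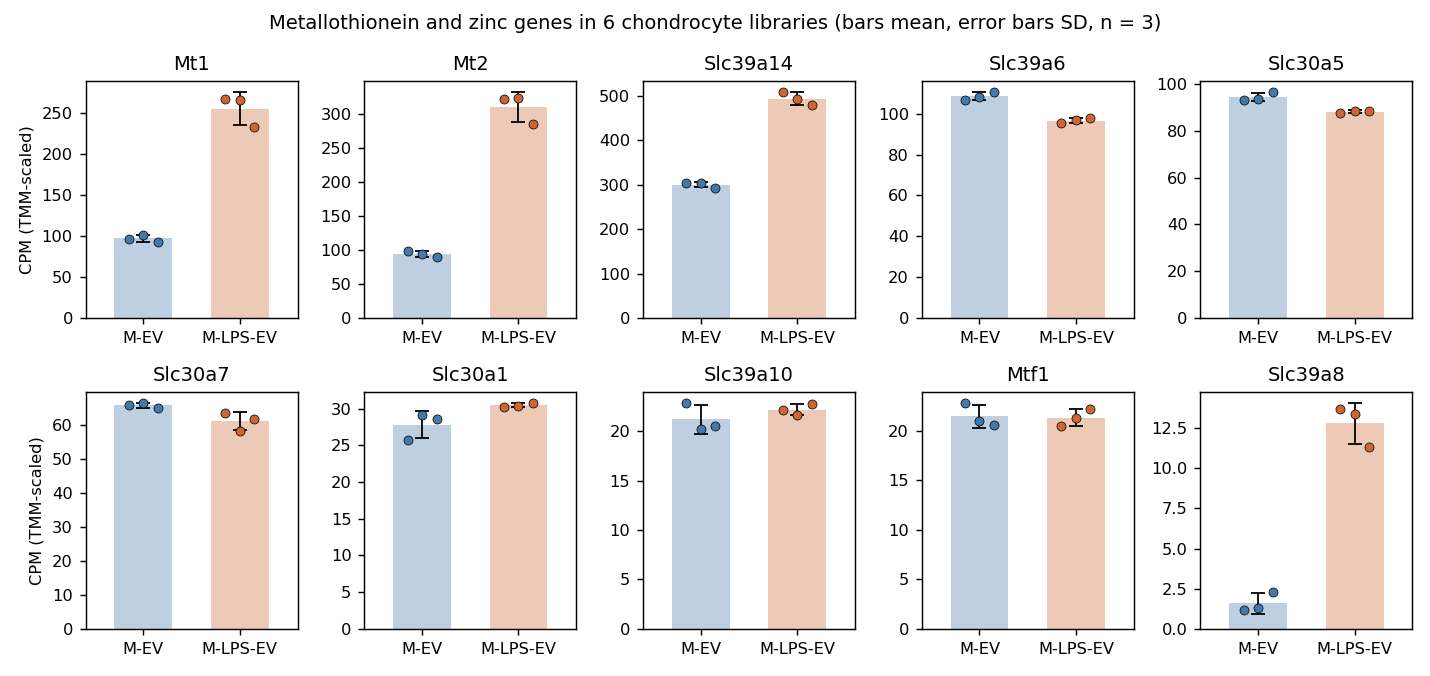
CPM (y axis, linear from 0, scaled separately per gene) of each of the 10 genes in the 6 libraries, grouped on the x axis, with points for libraries, bars for means and error bars for SD (n = 3). Mt1, Mt2, Slc39a14 and Slc39a8 are higher in every M-LPS-EV library, while the groups overlap for Slc39a10 and Mtf1.

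Mt1 (ENSMUSG00000031765) and Mt2 (ENSMUSG00000031762) are neighbours on chromosome 8 in the same orientation (positions here and below are mm10, GENCODE M21), Mt2 from 94172664 to 94173568 and Mt1 from 94179082 to 94180327, with 5513 bases between them. Mt1 stood at 96.6, 102 and 93.1 CPM in the M-EV libraries and at 267, 266 and 232 CPM in the M-LPS-EV libraries. Mt2 stood at 98.2, 94.6 and 89.5 CPM with M-EV and at 322, 323 and 285 CPM with M-LPS-EV. The groups were far apart for both genes, and M-LPS-EV replicate 3 was the lowest of its group for each. The log2 fold change was 1.40 for Mt1 (SE 0.04, edgeR adjusted p = 2.5e-19), or 2.63-fold. For Mt2 it was 1.72 (SE 0.04, edgeR adjusted p = 1e-21), or 3.29-fold. Among the 14604 tested genes Mt2 ranked 126 and Mt1 ranked 188 by log2 fold change.

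Both genes were already abundant with M-EV. On the TPM scale, which divides by transcript length and allows comparison between genes, Mt2 stood at 558, 536 and 506 and Mt1 at 480, 502 and 462 in the M-EV libraries. With M-LPS-EV, Mt2 stood at 1815, 1791 and 1604 TPM and Mt1 at 1314, 1286 and 1140 TPM. Mt2 was above Mt1 in all 6 libraries. By mean TPM among the tested genes Mt2 moved from rank 239 to rank 98 and Mt1 from rank 270 to rank 142.

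The balance between the pair differed too. The share of Mt2 in the summed Mt1 and Mt2 TPM was 53.8%, 51.6% and 52.3% in the M-EV libraries and 58.0%, 58.2% and 58.4% in the M-LPS-EV libraries. Every M-LPS-EV library was above every M-EV library, and the means, 52.6% ± 1.10 and 58.2% ± 0.219 (SD, n = 3 per group), were 5.66 percentage points apart. The exact two-sided permutation test gave p = 0.1, the smallest value that 3 against 3 allows, so this design cannot pass the 0.05 threshold. The same share taken from expected counts differed by 5.63 percentage points.

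Within the metallothionein genes, Mt2 was assigned entirely to Mt2-201, while Mt2-202 was listed at 0 in every library. Mt1-201, with 3 exons and 549 bases, held 95.07% to 96.45% of Mt1 abundance in the 6 libraries. Transcripts were tested in a fit of their own, in which 4.45% of 37245 tested transcripts were called. The log2 fold changes were 1.38 (SE 0.06) for Mt1-201 and 1.72 (SE 0.06) for Mt2-201, and both were called (edgeR adjusted p = 0.00017 and 7.2e-05). The minor forms Mt1-203, with 302 and 838 counts per group, and Mt1-202, with 100 and 324, were called higher too, with log2 fold changes of 1.57 (SE 0.16) and 1.79 (SE 0.21). No other gene, Mt2 included, matched an Mt1 transcript over 100 bases or more at 90% identity or above. An antisense gene, Gm45774, overlaps Mt2 and was called higher, at 58 and 172 counts per group (a log2 fold change of 1.66 with an SE of 0.25 and an edgeR adjusted p of 6.7e-06). It shares 212 bases with Mt2. The sources used here do not give the strand setting of the counting, so its reads and those of Mt2, at 6609 and 20324 counts per group, may not be told apart.

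Mtf1 (ENSMUSG00000028890, chromosome 4, 124802104 to 124849800), the transcription factor that senses zinc, was measured at 22.8, 20.95 and 20.6 CPM with M-EV and at 20.5, 21.3 and 22.2 CPM with M-LPS-EV. The groups overlapped throughout, with a log2 fold change of -0.01 (SE 0.06, 95% interval -0.14 to 0.11, edgeR adjusted p = 0.92). On the TPM scale its sign turned, to 0.17 (limma adjusted p = 0.27), and still the gene was not called. The gene TPM was 7.65, 6.33 and 7.58 with M-EV and 8.53, 8.52 and 7.62 with M-LPS-EV. A short retained-intron form, Mtf1-204, took between 21.80% and 32.28% of Mtf1 abundance with M-EV and between 30.75% and 42.35% with M-LPS-EV, from at most 28.7 counts in a library. The main coding form Mtf1-201 had 4.94, 4.30 and 4.65 TPM with M-EV and 4.21, 4.66 and 4.70 TPM with M-LPS-EV, and was not called (edgeR adjusted p = 0.96). The 3′ end of Mtf1 shares 721 bases with 1110065P20Rik on the opposite strand, whose counts lay between 416 and 529.

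Slc39a8 (ENSMUSG00000053897, chromosome 3, 135825279 to 135888572) encodes ZIP8, an importer of zinc, manganese and other divalent metals at the plasma membrane. It had 30, 28 and 52 counts in the M-EV libraries and 291, 316 and 231 counts in the M-LPS-EV libraries. In CPM these were 1.18, 1.27 and 2.31 with M-EV and 13.7, 13.4 and 11.3 with M-LPS-EV. The groups did not overlap, although M-EV replicate 3 stood well above the other two of its group. The log2 fold change was 3.02 (SE 0.16, edgeR adjusted p = 4.7e-14), or 8.12-fold, the largest of the 10 and rank 49 among all tested genes. It was 3.38 without M-EV replicate 3 and 2.09 on the log2(TPM + 1) scale, where the pseudocount compresses low values.

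The counts of Slc39a8 were spread over transcripts that begin at different places. Slc39a8-201 begins at 135826090, Slc39a8-205 at 135825790 and Slc39a8-206 at 135825657, and all are annotated as coding. The second promoter window above was set on the start of Slc39a8-206. The first was set on that of Slc39a8-202 (135825279), which was listed at 0 in every library. No window was set on the starts of Slc39a8-201 and Slc39a8-205. Slc39a8-205 was listed at 0 in the 3 M-EV libraries and had 71.6, 73.1 and 38.9 counts in the M-LPS-EV libraries (edgeR adjusted p = 0.0079). Set against a floor of 3 counts for the whole M-EV group, this was 66.8-fold higher. That figure allows for counting error only and not for how RSEM divides shared reads, so it is no lower limit of a change. Slc39a8-205 passed the count filter only through the M-LPS-EV libraries. Slc39a8-206 had 16.5, 0 and 3.2 counts with M-EV and 35.4, 112.9 and 131.8 counts with M-LPS-EV. Slc39a8-201 had 10.6, 25.0 and 43.1 counts with M-EV and 142.1, 97.4 and 43.9 counts with M-LPS-EV. Within M-LPS-EV the share of Slc39a8-201 in the gene's abundance thus ranged from 19.8% to 49.9% and that of Slc39a8-206 from 11.7% to 56.2%. Slc39a8-206 and Slc39a8-201 were not called (edgeR adjusted p = 0.14 and 0.22). These are RSEM estimates from shared exons, and their uncertainty is not in the test.

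**Figure D3:**
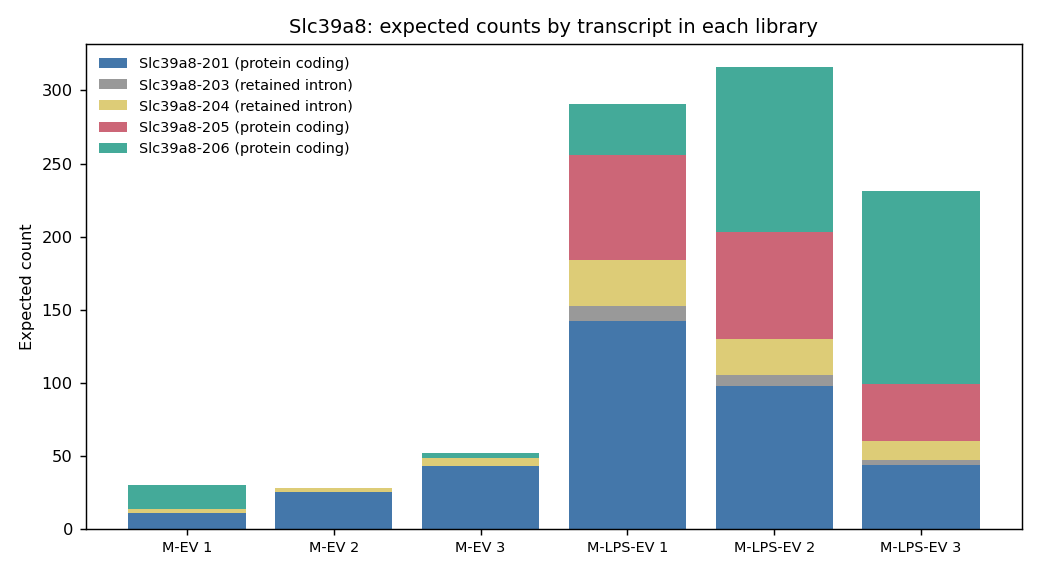
Expected counts of Slc39a8 (y axis, from 0) in each of the 6 libraries (x axis), stacked by transcript. The totals are 28 to 52 with M-EV, 231 to 316 with M-LPS-EV, and the division between Slc39a8-201 and Slc39a8-206 varies within M-LPS-EV.

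Slc39a14 (ENSMUSG00000022094, chromosome 14, 70303469 to 70351425) encodes ZIP14, a close relative of ZIP8 that carries zinc, iron and manganese. It was the most abundant transporter among the members, with 304, 303 and 293 CPM with M-EV and 508, 493 and 479 CPM with M-LPS-EV. All M-LPS-EV libraries were above all M-EV libraries. This was a 1.64-fold rise, or 0.72 on the log2 scale with an SE of 0.02 (edgeR adjusted p = 2.1e-18). The rise was smaller in proportion than that of Slc39a8 but far larger in amount, from a mean of 145 ± 9.21 to 232 ± 7.22 TPM, against 0.933 ± 0.380 to 7.13 ± 0.783 TPM for Slc39a8 (SD, n = 3 per group). Slc39a14-202, the 4926-base coding form, held 94.3% to 95.6% of the gene's counts in all 6 libraries but 67.65% to 76.72% of its abundance. It was called higher (edgeR adjusted p = 0.00011) with a log2 fold change of 0.72 (SE 0.03). The 479-base form Slc39a14-203 held 12.89% to 19.88% of the abundance and was not called (log2 fold change 0.49, SE 0.23, edgeR adjusted p = 0.4). A retained-intron form, Slc39a14-208, rose with Slc39a14-202 (log2 fold change 0.79, SE 0.12).

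The other 2 importers moved little. Slc39a6 (ENSMUSG00000024270, chromosome 18, 24579881 to 24603817) encodes ZIP6 and Slc39a10 (ENSMUSG00000025986, chromosome 1, 46807544 to 46892852) encodes ZIP10, paralogues that can form a joint complex. Slc39a6 stood at 107, 108 and 110.4 CPM with M-EV and at 95.3, 96.7 and 97.9 CPM with M-LPS-EV, without overlap. Its log2 fold change was -0.17 (SE 0.03), called lower (edgeR adjusted p = 0.00019). The gene's TPM overlapped between groups, between 51.2 and 57.8 with M-EV and between 45.5 and 51.6 with M-LPS-EV, and the fall was not called on that scale (limma adjusted p = 0.080). Its coding form Slc39a6-201 did not overlap, with 50.1, 51.2 and 52.0 TPM against 44.5, 45.5 and 45.4 TPM, and was called lower (edgeR adjusted p = 0.020) with a log2 fold change of -0.17 (SE 0.03). The gene value also held a 529-base retained-intron form, Slc39a6-202, with 0% to 12.58% of the abundance. Slc39a6 overlaps Elp2 on the opposite strand, which was not called (log2 fold change -0.06, SE 0.04).

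Slc39a10 had 22.8, 20.2 and 20.5 CPM with M-EV and 22.1, 21.6 and 22.8 CPM with M-LPS-EV. The groups overlapped, and the log2 fold change was 0.06 (SE 0.06, 95% interval -0.06 to 0.19, edgeR adjusted p = 0.49). On the log2(TPM + 1) scale it was -0.02 (limma adjusted p = 0.90).

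Slc30a1 (ENSMUSG00000037434, chromosome 1, 191906767 to 191913247) encodes ZnT1, the exporter at the plasma membrane, and like the metallothionein genes is a textbook target of MTF1. Its levels were 25.7, 29.1 and 28.5 CPM with M-EV and 30.3, 30.3 and 30.8 CPM with M-LPS-EV. Every M-LPS-EV library was above every M-EV library, by a small margin. The log2 fold change was 0.13 (SE 0.05, 95% interval 0.03 to 0.24), with an unadjusted p of 0.017 and an edgeR adjusted p of 0.054, and the gene was not called. The adjusted p was 0.048 with the replicate number as a block, 0.045 among genes with a mean count of at least 50 and 0.036 without M-EV replicate 2. Without M-EV replicate 1, the lowest library, the log2 fold change was 0.08 (edgeR adjusted p = 0.32). The upper end of the interval, 0.24, lay below the log2 fold changes of Mt1 (1.40) and Mt2 (1.72). The part of MTF1 in the values of these genes was not tested.

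Slc30a5 (ENSMUSG00000021629, chromosome 13, 100802648 to 100833427) and Slc30a7 (ENSMUSG00000054414, chromosome 3, 115938973 to 116007406) encode ZnT5 and ZnT7, which load zinc into the early secretory pathway, where enzymes such as alkaline phosphatase take it up. Slc30a5 stood at 93.3, 93.3 and 96.3 CPM with M-EV and at 87.4, 88.5 and 88.4 CPM with M-LPS-EV. Slc30a7 stood at 66.0, 66.6 and 65.1 CPM with M-EV and at 63.7, 58.4 and 62.0 CPM with M-LPS-EV. Neither gene's groups overlapped. The log2 fold change was -0.10 for both, with an SE of 0.03 for Slc30a5 and 0.04 for Slc30a7, and both were called lower (edgeR adjusted p = 0.026 and 0.045). Both calls were lost with DESeq2 (adjusted p = 0.059 and 0.12) and on the log2(TPM + 1) scale (limma adjusted p = 0.19 and 0.33). That of Slc30a7 was lost with the replicate block (edgeR adjusted p = 0.059) and without any of the libraries M-EV 1, 2 or 3 and M-LPS-EV 2 or 3, and that of Slc30a5 without M-EV 3, M-LPS-EV 1 or M-LPS-EV 3. A processed transcript of 359 bases, Slc30a7-203, carried 51.58% to 61.04% of the Slc30a7 abundance from 32.5 to 42.9 counts in a library. The gene's TPM thus describes mostly that short form, and the coding form Slc30a7-201 had 12.6 ± 0.101 TPM with M-EV and 11.6 ± 0.497 TPM with M-LPS-EV (SD, n = 3 per group). Repeats in Slc30a5 transcripts match 1186 other genes over at most 213 bases, and Slc30a7 shares 1183 bases at 93.4% identity with Elf1.

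Ordered by the TPM of the main coding transcript with M-EV, Mt2 was highest at 533 ± 25.9, followed by Mt1-201 at 461 ± 17.1 and Slc39a14-202 at 105 ± 2.23. Slc39a6-201 and Slc30a5-201 came next at 51.1 ± 0.942 and 49.98 ± 1.34 and did not differ beyond their spread. Slc30a7-201 stood at 12.6 ± 0.101, Slc30a1-201 at 9.63 ± 0.609, Slc39a10-201 at 6.79 ± 0.602 and Mtf1-201 at 4.63 ± 0.320 (SD, n = 3 per group). Slc39a8 was the lowest, its whole gene at 0.933 ± 0.380 TPM. With M-LPS-EV the whole Slc39a8 gene, at 7.13 ± 0.783 TPM, reached the level of Slc39a10-201 at 7.18 ± 0.217 TPM, and these did not differ beyond their spread.

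The rest of the zinc transporter and metallothionein families was read from a list of 20 further genes, of which 10 had enough counts. Of these 2 rose, 3 fell and 5 passed neither way, beside 16.4% higher and 15.2% lower among all tested genes. Their median log2 fold change was -0.015. The largest rise was that of Slc39a1, the plasma membrane importer ZIP1, from 82.4 ± 2.56 to 105 ± 4.57 CPM (log2 fold change 0.35, SE 0.04). Slc30a9 was also called higher (log2 fold change 0.14, SE 0.04), but its sign turned on the TPM scale (-0.30, limma adjusted p = 0.11), and the call was lost without M-EV replicate 1 (edgeR adjusted p = 0.052). Slc39a7, the endoplasmic reticulum zinc channel ZIP7, was the most abundant of the list and went from 359 ± 2.86 to 322 ± 6.52 CPM (log2 fold change -0.16, SE 0.02). Slc39a11 had -0.29 (SE 0.04) and Slc39a9 had -0.14 (SE 0.03), and both were called lower. Slc30a4 was not called (log2 fold change -0.07, SE 0.04). Mt3 had 0 and 3 counts per group, and Mt4, Slc39a5, Slc39a12, Slc30a8 and Tmem163 were listed at 0 in every library. Summed over all 14 Slc39a genes the level was between 1147 and 1150.2 CPM with M-EV and between 1287 and 1326 CPM with M-LPS-EV. Over all 10 Slc30a genes it was 372 to 387 CPM and 372 to 384 CPM, so that the sums of the exporter family overlapped between groups. The higher Slc39a sum was not shared across that family. Slc39a14 alone went from a mean of 300 to 493 CPM, a larger step than that of the sum. Of the other Slc39a genes, Slc39a8 and Slc39a1 were called higher and Slc39a6, Slc39a7, Slc39a9 and Slc39a11 lower.

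**Figure D4:**
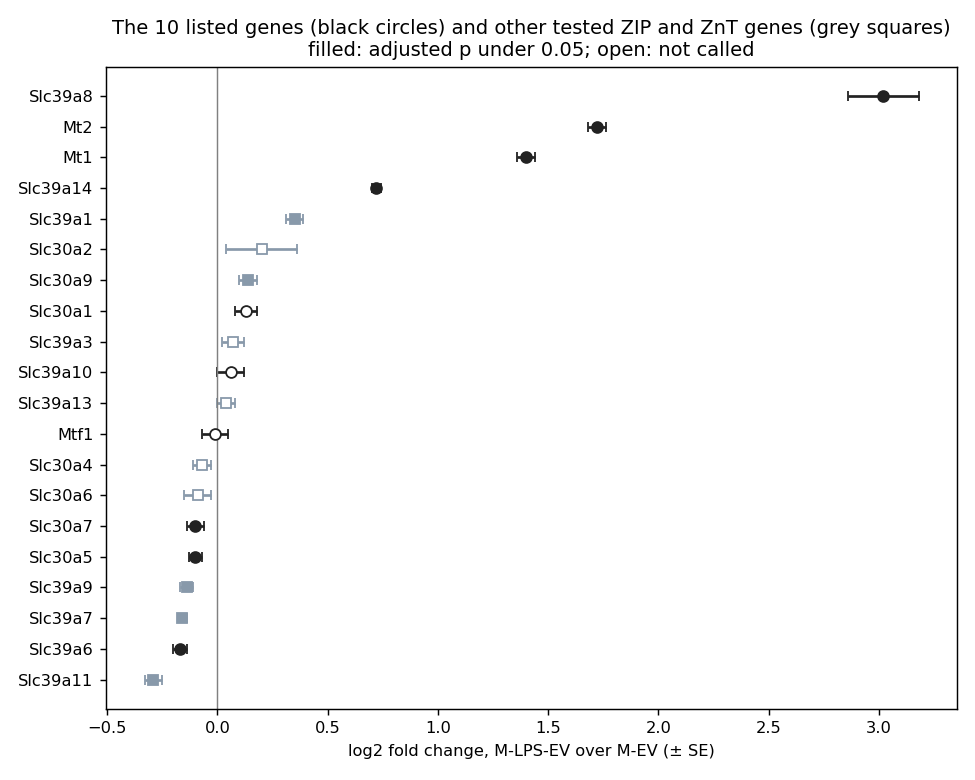
Log2 ratios of the M-LPS-EV to the M-EV group (x axis, error bars SE) for the 10 listed genes (black circles) and the 10 other tested ZIP and ZnT genes (grey squares), ordered by size; filled symbols have an adjusted p under 0.05. Slc39a8, Mt2, Mt1 and Slc39a14 lie at 0.72 or above, and every other gene lies between -0.29 and 0.35.

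Genes known from other work as MTF1 targets, apart from the members, were read as a list of 6. Ndrg1, a stress-responsive gene, stood at 197 ± 3.27 CPM with M-EV and rose to 251 ± 10.3 CPM with M-LPS-EV, a log2 fold change of 0.35 (SE 0.03). Selenow, a selenoprotein, had 0.19 (SE 0.03) and Gclc, the catalytic subunit of the enzyme that starts glutathione synthesis, had 0.15 (SE 0.04), and both were called higher, Gclc not with DESeq2 (adjusted p = 0.061) nor on the TPM scale (limma adjusted p = 0.12). Gclc was also not called with the effective length offset or without M-EV replicate 2 (edgeR adjusted p = 0.057 and 0.052). Csrp1 (0.06, SE 0.04), Selenoh (0.01, SE 0.06) and the iron exporter gene Slc40a1 (-0.44, SE 0.20, edgeR adjusted p = 0.10) were not called. Slc40a1 was called lower without M-EV replicate 2 (-0.62, edgeR adjusted p = 0.022). Thus 3 of 6 were called higher, beside 16.4% of all tested genes. This list too was chosen with earlier results of these data known, and the part of MTF1 in these values was not tested.

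The matrix proteases placed downstream of zinc and MTF1 in cartilage were all called higher, 5 of 5, beside 16.4% of all tested genes. The list was chosen with earlier results of these data known, so this count is no independent evidence. The part of zinc, ZIP8 or MTF1 in the protease values was not tested. The stromelysin gene Mmp3 and the collagenase gene Mmp13 had log2 fold changes of 6.18 (SE 0.08) and 2.16 (SE 0.03). Mmp9, a gelatinase, had 46 and 134 counts per group and a log2 fold change of 1.64 (SE 0.29). Mmp12, the macrophage elastase, had 144 and 246 counts and 0.88 (SE 0.18), and the aggrecanase Adamts5 had 456 and 687 counts and 0.69 (SE 0.10). Of the tested macrophage markers Adgre1, Lyz2 and Itgam were also called higher and Cd68, Csf1r and Mrc1 were not, with the values given above. The part of macrophage RNA in the values of Mmp9 and Mmp12 was not tested.

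Metallothionein and ZIP genes are also driven by factors other than MTF1, read here as a list of 7. Of these 5 were called higher and 1 lower, beside 16.4% and 15.2% of all tested genes. This list was likewise chosen with earlier results of these data known. Il6, a cytokine known to induce Slc39a14 and the metallothioneins in liver, had 1 count with M-EV and 80 with M-LPS-EV. The NF-kB subunit genes Nfkb1 and Rela had log2 fold changes of 0.58 (SE 0.04) and 0.15 (SE 0.04), the latter not called with DESeq2 (adjusted p = 0.067), with the effective length offset (edgeR adjusted p = 0.15) or on the TPM scale (limma adjusted p = 0.17). Nfe2l2, which encodes NRF2, had 0.25 (SE 0.03) and Stat3 had 0.10 (SE 0.03). Nr3c1, the glucocorticoid receptor gene, fell by 0.17 on the log2 scale (SE 0.03), and Usf1 was not called (0.05, SE 0.07). The call of Stat3 was lost on the TPM scale (limma adjusted p = 0.093) and without M-EV replicate 2 (edgeR adjusted p = 0.057).

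Among the 9047 genes whose mean level was 10 CPM or more, those nearest to each metallothionein over the 6 libraries were found by Euclidean distance of log2(CPM + 1) after subtracting each gene's M-EV mean. Nearest to Mt2 were Car9, a carbonic anhydrase (distance 0.0859, log2 fold change 1.76), the ferritin heavy chain gene Fth1 (0.137, log2 fold change 1.72) and Selenbp1, a selenium-binding protein gene (0.149, log2 fold change 1.87). Nearest to Mt1 were the mitochondrial superoxide dismutase gene Sod2 (0.151, log2 fold change 1.43), Ndufa4l2 (0.165, log2 fold change 1.46) and the NF-kB subunit gene Relb (0.228, log2 fold change 1.46). The distance mainly reflects the size of the group difference, since the 6 libraries hold 2 conditions.

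**Figure D5:**
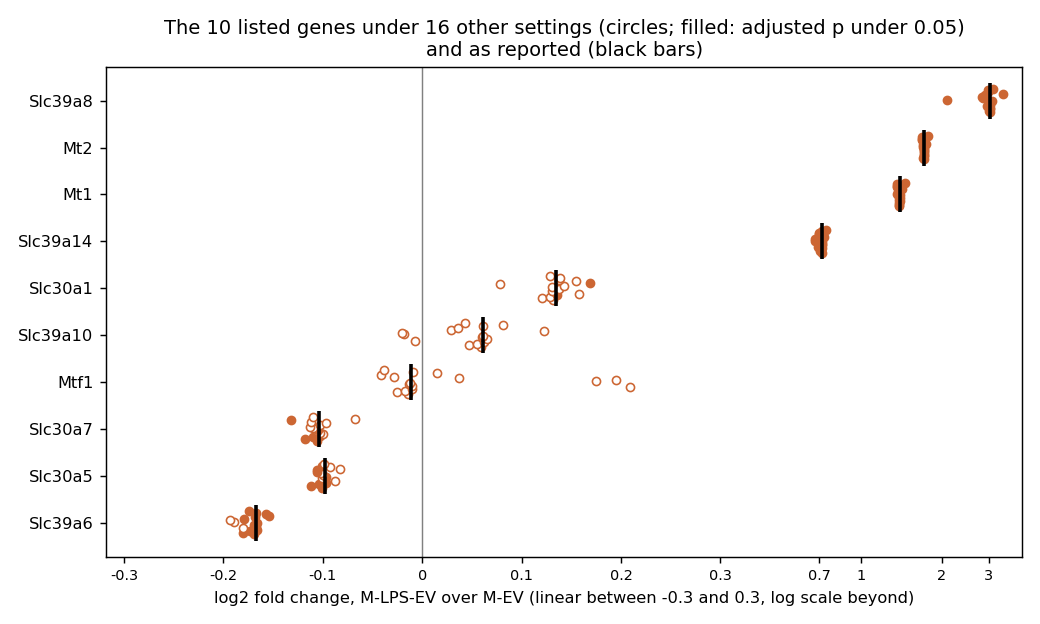
Log2 fold changes of the 10 listed genes (x axis, linear between -0.3 and 0.3 and logarithmic beyond) as reported (black bars) and under 16 other settings (circles; filled where the adjusted p is under 0.05). Slc39a8, Mt2, Mt1 and Slc39a14 are filled throughout, while circles of Slc39a10 and Mtf1 lie on both sides of 0 and those of Slc30a5 and Slc30a7 are partly open.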

How the data were processed

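RNA of chondrocytes was sequenced in 6 stranded mRNA libraries, per the labels' protocols. The submitters' processing notes name STAR, RSEM and DESeq2 with mm10; the sources used here do not give tool versions, the strand option or the annotation. The authors deposited, for each transcript, an expected count (RSEM's estimate), a TPM, an FPKM (not used here) and IsoPct, its percent of the summed abundance of the gene, with lengths in bases, per the file headers. Of the transcript identifiers 99.14% were in GENCODE M21 (mm10), which gave names and 1-based coordinates.

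Expected counts were summed per gene and rounded, filtered with filterByExpr (minimum count 10, minimum total 15), scaled by TMM and tested with edgeR 4.0.16 (glmQLFit, glmQLFTest; group only; R 4.3.3). The 37245 tested transcripts were fitted in the same way. The SE of an edgeR log2 fold change was derived as its absolute value divided by the square root of the test's F statistic. Intervals use that SE and edgeR's degrees of freedom. Shared sequence was searched with BLAST 2.17.0. The fits were tested on simulated data. Alternatives used DESeq2 1.42.0, limma 3.58.1 and the other settings of the closing section.

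The members and lists were chosen with earlier results of these data known. Named genes were the 10 members, up to 6 further zinc family genes with the smallest p, all genes of the 3 short lists, and the 3 genes nearest to Mt1 and to Mt2. Zinc family genes beyond these 6 are named only where called, turned or listed near 0.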

Additional observations from a re-analysis of the deposited data

How the results depend on the processing

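The rises of Mt1 (1.36 to 1.46), Mt2 (1.68 to 1.78), Slc39a14 (0.67 to 0.74) and Slc39a8 (2.09 to 3.38) kept their direction and their call under all 16 alternatives. Genes called fell from 4614 to 2868 with the offset and to 2622 and 2619 with limma-trend on log2(TPM + 1) and log2(TPM + 0.1), and the 3 members called lower became 0 under each of these (limma or edgeR; 1 at an unadjusted p under 0.05) and 1 with DESeq2. Under these 3 settings in the same order the log2 fold changes were 0.21, 0.17 and 0.20 for Mtf1, -0.0074, -0.018 and -0.020 for Slc39a10, -0.29, -0.30 and -0.30 for Slc30a9, -0.012, -0.027 and -0.027 for Selenoh, and -0.13, -0.14 and -0.14 for Usf1, all turned in sign. In the same order they were -0.18, -0.19 and -0.19 for Slc39a6, -0.088, -0.0999 and -0.10 for Slc30a5 and -0.10, -0.11 and -0.11 for Slc30a7, no longer called. With upper-quartile scaling Selenoh was at -0.0031. With DESeq2, Slc30a5 (-0.10) and Slc30a7 (-0.11) were not called. Slc30a1 was called with a mean count of at least 50 (0.14). The cause of these changes was not tested.

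No pairing of the libraries by replicate number was seen. Over 9047 genes, deviations from the group means correlated at -0.14, -0.08 and 0.05 for the same number. For different numbers they correlated between -0.12 and 0.17. With 3 libraries per group this cannot show that no pairing existed. With the number as a block 4519 genes and 524 transcripts were called, the latter against 1658 without it, Slc30a1 was called (0.13) and Slc30a7 was not (-0.10). The block changed no other member's call. Leaving out each library in turn, transcripts called ran from 855 to 996 and members called lower from 1 to 2. The log2 fold change then ran from -0.041 to 0.038 for Mtf1, from 0.078 to 0.17 for Slc30a1, from -0.11 to -0.083 for Slc30a5, from -0.13 to -0.067 for Slc30a7, from -0.032 to 0.049 for Selenoh and from -0.040 to 0.092 for Usf1. The Mt2 share difference ran from 5.19 to 6.26 percentage points.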
